A study of Arabidopsis thaliana with 6 samples.

Results

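The genes described here are 10 carriers that import amino acids into plant cells. They were taken by their identifiers from tables of 33557 genes, and all 10 were found. They are the amino acid permease genes *AAP1* (AT1G58360), *AAP2* (AT5G09220), *AAP3* (AT1G77380), *AAP4* (AT5G63850), *AAP5* (AT1G44100), *AAP6* (AT5G49630) and *AAP8* (AT1G10010), with *LHT1* (AT5G40780, lysine histidine transporter 1), *CAT1* (AT4G21120, a cationic amino acid transporter) and *PROT2* (AT3G55740, a proline transporter). They were measured by RNA-seq in roots of 10-day-old Arabidopsis plants on solid medium with 10 mM nitrate as the sole nitrogen source. The 2 groups were WT, which is the Col ecotype in this experiment, and *CEPDL2ox*, plants that carry *35S:CEPDL2*. CEPDL2 is a glutaredoxin-like polypeptide that moves from the shoot to the root and promotes nitrate uptake, and the 35S promoter drives it throughout the plant rather than in leaf phloem alone. Each group had 3 replicates. The study's methods call the replicates of each experiment independent biological ones, while the labels number them only, and whether the *CEPDL2ox* libraries came from 1 transgenic line is not given in the sources used here. The comparison asks whether carriers of organic nitrogen change in roots in which the nitrate uptake signal is overproduced.

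Amino acid import carriers sit in the plasma membrane and couple the entry of an amino acid to that of protons. Some serve roots in taking up amino acids from the soil, and others move amino acids between xylem and phloem inside the vascular tissue. AAP, LHT and ProT proteins belong to one superfamily, and CAT proteins to another. Amino acids that circulate in the phloem have long been discussed as a measure of the nitrogen status of the plant.

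*CEPDL2* (AT3G62960) checked the labels, with 3.27 to 9.45 FPKM in WT and 7948 to 8838 FPKM in *CEPDL2ox* libraries. FPKM is a level per length of transcript and per number of mapped fragments. WT replicate 1 stood apart in genes of green tissue. The summed level of 16 Rubisco small subunit, light-harvesting and photosystem genes was 4392 FPKM there, 485 to 634 FPKM in the other WT libraries and 255 to 503 FPKM in *CEPDL2ox* libraries. Markers of endodermis, xylem, phloem, root hairs and the root meristem were above 0 in every library, as were all genes of those lists, while the green tissue list had up to 2 genes at 0 in a library. From single reads on low genes, depth was estimated at 5884000 to 6276000 reads in WT and 5138000 to 5523000 reads in *CEPDL2ox* libraries. This estimate assumes that FPKM was not scaled further between libraries, which is not known.

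Of the 10 carriers, *AAP4* fell in *CEPDL2ox* roots and none rose. The test was limma on log2(FPKM + 1), run on the 19597 genes whose mean reached 1 FPKM, and 9 of the 10 carriers were among them. A gene was called with a Benjamini-Hochberg adjusted p under 0.05, whatever its fold change. By this rule 1 of 9 carriers was lower, against 2.00% of all genes tested, and 0 of 9 were higher, against 3.71%. At an unadjusted p under 0.05 from limma there were 2 of 9 carriers, *AAP4* and *CAT1*, both with lower means in *CEPDL2ox*. Of all 19597 genes tested, 4534 reached this level in either direction, a share close to that of the carriers. The median log2 fold change over the 9 carriers was -0.02, beside -0.03 over all genes tested. With libraries scaled to the same summed FPKM, all genes tested gave 711 lower and 552 higher, in place of 392 lower and 728 higher.

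**Figure D1:**
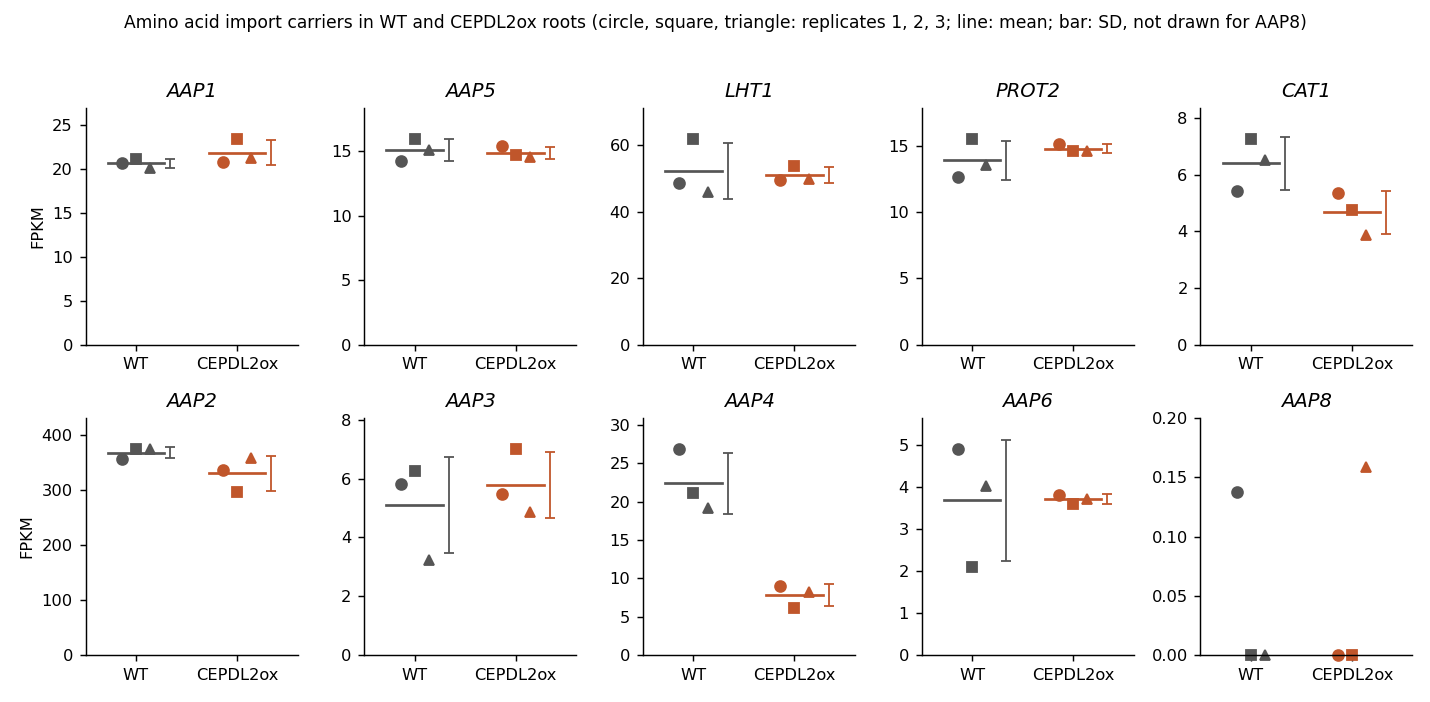
FPKM of each of the 10 carriers by library on axes that start at 0, with WT in grey and *CEPDL2ox* in orange (lines are means and bars the SD over 3 replicates, neither drawn for *AAP8*). The *AAP4* values of the 3 *CEPDL2ox* libraries, at most 9.01 FPKM, sit below those of the 3 WT libraries, at least 19.2 FPKM.

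*AAP4* encodes a permease known from the vascular tissue. It lies on chromosome 5 of TAIR10 from 25551055 to 25553520 and overlaps no other gene of the tables. Its level was 26.9, 21.1 and 19.2 FPKM in WT replicates 1, 2 and 3, and 9.01, 6.17 and 8.27 FPKM in *CEPDL2ox* replicates 1, 2 and 3. All 3 *CEPDL2ox* libraries were thus below all 3 WT libraries, and within WT the library with green tissue genes was the highest. The WT mean was 22.4 ± 4.01 FPKM (SD, n = 3). The *CEPDL2ox* mean of 7.81 ± 1.47 FPKM (SD, n = 3) was 34.9% of it. On the log2 scale the difference was -1.41 with a standard error of 0.17 (95% interval -1.80 to -1.02, adjusted p = 0.0044 from limma). By its estimate *AAP4* also passed the fold threshold of the study, an absolute log2 fold change above 1. Both this threshold and the adjusted p were passed by 0.424% of all genes tested in the lower direction and 1.16% in the higher direction. The 95% interval of *AAP4* crossed -1 under some other settings, with an upper end of -0.99 with no filter. An exact two-sided permutation test of the FPKM gave p = 0.10, the smallest that 3 against 3 allow. Whether fewer cells expressed the gene or each cell held less of its RNA cannot be told apart in whole roots.

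The difference of *AAP4* did not rest on a single library. Without WT replicate 1 the log2 fold change was -1.27 (adjusted p = 0.021 from limma), and with each of the 6 libraries left out in turn it stayed between -1.51 and -1.27. Summed phloem markers (8 genes) were 226 to 275 FPKM in WT and 282 to 314 FPKM in *CEPDL2ox*, without overlap, but the median level of the 8 genes overlapped between the groups (20.0 to 25.2 FPKM and 19.0 to 22.9 FPKM). *PP2-A1*, a phloem lectin with 114 to 136 FPKM in WT and 146 to 167 FPKM in *CEPDL2ox*, was higher without overlap. So was *SUC2*, the sucrose carrier of phloem companion cells. AT5G06850 was lower without overlap, and the other 5 of the 8 overlapped. Over all genes tested, 13.8% were higher and 16.1% lower in *CEPDL2ox* without overlap. *SUC2* was the 1 of 8 called, beside 3.71% of all genes, and its call was lost with no filter (adjusted p = 0.060, limma), with the same summed FPKM (0.056), with no intensity trend (0.073) and without any 1 of the 6 libraries (0.056 to 0.13). The sum of the 6 xylem markers was 203 to 222 FPKM in WT and 218 to 290 FPKM in *CEPDL2ox*, and none of the 6 was called. Most of this sum lay in *XCP1* and *XCP2*, with WT means of 97.7 and 86.0 FPKM. The median level of the 6 overlapped between the groups (7.32 to 10.3 FPKM and 7.87 to 8.94 FPKM). Without overlap, 1 of the 6 was higher in *CEPDL2ox* (*XCP1*) and 1 lower (*CESA8*). Root hair and epidermis markers summed to 303 to 324 FPKM in WT and 345 to 441 FPKM in *CEPDL2ox*, with 2 of 9 called higher, *EXPA7* and *RHD6*, again beside 3.71% of all genes. The mean difference was above 0 for 8 of the 9 and below 0 for 1, *WER* (log2 fold change -0.32, not called). None of the 9 was called with the same summed FPKM, with no intensity trend, or without WT replicate 1, WT replicate 2, *CEPDL2ox* replicate 1 or *CEPDL2ox* replicate 3, while 1 was called with no filter or without WT replicate 3, and 3 were called without *CEPDL2ox* replicate 2. None of the 7 endodermis, 3 meristem and 16 green tissue genes was called, although the mean difference was below 0 for all 16 green tissue genes. The part of these markers in the *AAP4* result was not tested.

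**Figure D2:**
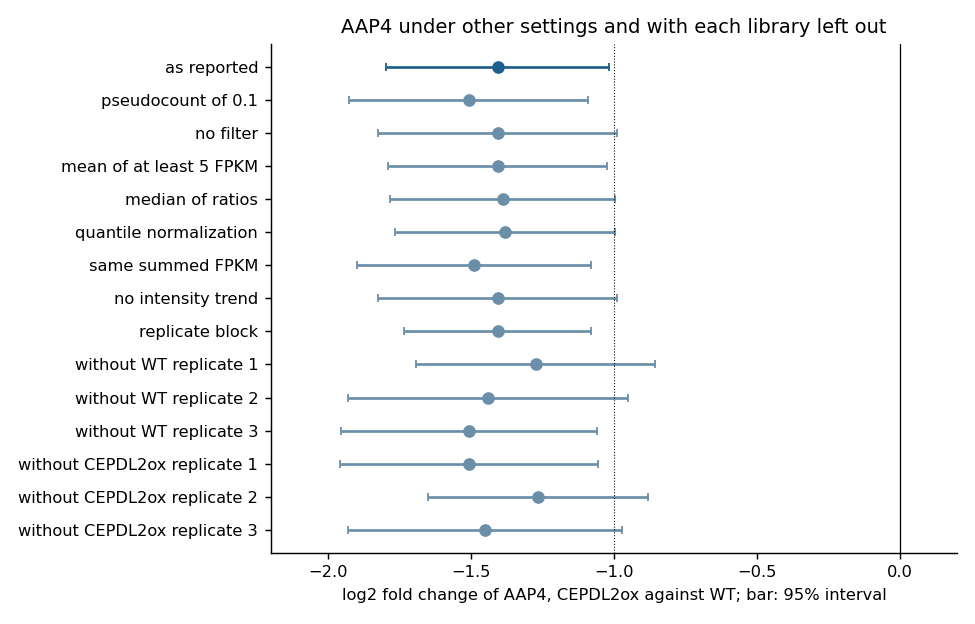
Log2 fold change of *AAP4* with its 95% interval (x axis) as reported, under each other setting and with each library left out (y axis). All estimates lie between -1.51 and -1.27, to the left of the dotted line at -1, while the intervals of some settings, such as no filter, cross that line.

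Reads of *AAP4* could be told from those of its closest relative. By translated coding sequences of the TAIR10.1 reference, *AAP2* was the member most like *AAP4*, with 84.4% of residues identical, followed by *AAP3* with 72.5%. No stretch of 75 bases, the read length, occurred in the transcripts of 2 members, or of a member and *AAP7*, with 2 or fewer mismatches on the same strand. The pair of 75-base stretches of *AAP2* and *AAP4* with the fewest mismatches differed at 6 bases. They are shown because they are the place where a misplaced read would be most likely, with the differing bases in capitals. Both lie in 1 coding exon on the plus strand of chromosome 5 of TAIR10.1, *AAP2* at chr5:2868651-2868725 and *AAP4* at chr5:25553162-25553236.
AAP2: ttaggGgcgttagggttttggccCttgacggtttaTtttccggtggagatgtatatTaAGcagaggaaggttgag
AAP4: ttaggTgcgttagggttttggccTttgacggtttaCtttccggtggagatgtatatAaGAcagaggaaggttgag

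The region around the annotated start of *AAP4* is given since it was the carrier gene that fell. It runs from 250 bases before to 50 bases after the start in the RefSeq annotation of TAIR10.1, at chr5:25550687-25550986 on the plus strand. It was searched on both strands for TGACG, the core of the element bound by TGA factors, which are known partners of plant-specific glutaredoxins. Matches would be in capitals, and there were none. None of the 10 carriers had a match in this window, which 23.1% of the same windows of 27443 protein-coding genes held.
AAP4: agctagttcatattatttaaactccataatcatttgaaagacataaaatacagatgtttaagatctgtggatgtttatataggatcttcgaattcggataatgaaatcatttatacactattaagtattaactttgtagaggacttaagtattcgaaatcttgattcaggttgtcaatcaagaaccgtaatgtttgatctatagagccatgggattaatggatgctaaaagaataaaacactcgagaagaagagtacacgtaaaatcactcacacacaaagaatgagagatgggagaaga

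The carriers of root uptake were not called. *AAP1*, a permease of neutral and acidic amino acids that serves root uptake, had 20.7, 21.1 and 20.1 FPKM in WT and 20.8, 23.4 and 21.2 FPKM in *CEPDL2ox* replicates 1, 2 and 3. *AAP5*, which takes up basic amino acids, had 14.3, 16.0 and 15.1 FPKM in WT and 15.4, 14.7 and 14.6 FPKM in *CEPDL2ox*. Values of both genes overlapped between the groups. *LHT1*, a carrier of broad specificity in root epidermis and leaf mesophyll, had 48.7, 61.9 and 46.0 FPKM in WT and 49.4, 53.7 and 49.7 FPKM in *CEPDL2ox*, and its spread was wider in WT. *PROT2*, a carrier of proline and glycine betaine, had 12.7, 15.6 and 13.6 FPKM in WT and 15.2, 14.6 and 14.6 FPKM in *CEPDL2ox*, again with overlap.

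The 95% intervals of these log2 fold changes bound the differences that remain possible. They were -0.13 to 0.28 for *AAP1*, -0.23 to 0.19 for *AAP5*, -0.29 to 0.25 for *LHT1* and -0.15 to 0.33 for *PROT2*. The interval of *AAP4* lay below all 4 of these intervals.

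*CAT1*, which carries basic amino acids and belongs to the CAT family, had 5.42, 7.28 and 6.52 FPKM in WT and 5.37, 4.76 and 3.88 FPKM in *CEPDL2ox* replicates 1, 2 and 3. The groups did not overlap, although WT replicate 1 and *CEPDL2ox* replicate 1 nearly met. The log2 fold change was -0.39 (95% interval -0.76 to -0.01), with an adjusted p of 0.20 from limma, so *CAT1* was not called. Among all genes tested, 16.1% were lower in *CEPDL2ox* without overlap, beside 2 of 9 carriers.

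The other permeases of the vascular tissue were not called either. *AAP2*, a phloem permease that moves amino acids from xylem to phloem, had 355, 374 and 374 FPKM in WT and 337, 296 and 357 FPKM in *CEPDL2ox* replicates 1, 2 and 3. Only *CEPDL2ox* replicate 3 reached into the WT range. Its log2 fold change was -0.16 (95% interval -0.36 to 0.04, adjusted p = 0.30 from limma). *AAP3*, a vascular permease of basic amino acids, had 5.83, 6.25 and 3.23 FPKM in WT and 5.49, 7.01 and 4.86 FPKM in *CEPDL2ox* (95% interval of the log2 fold change -0.36 to 0.72). *AAP6*, a high-affinity permease of xylem parenchyma, had 4.91, 2.103 and 4.04 FPKM in WT and 3.83, 3.60 and 3.73 FPKM in *CEPDL2ox* (95% interval -0.51 to 0.63). The WT values of *AAP6* enclosed those of *CEPDL2ox*.

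*AAP8*, a high-affinity permease known from phloem loading and seeds, was at the limit of detection. It had 0.138 FPKM in WT replicate 1 and 0.158 FPKM in *CEPDL2ox* replicate 3, each the value of 1 read, and was listed at 0 in the other 4 libraries. It did not pass the filter on low values and was not tested. A limit of 3 reads, which a count of 0 still allows, corresponds to 0.389 to 0.475 FPKM by library, and the upper end of the exact two-sided 95% Poisson interval for 0 reads is 3.69 reads. The tested carriers rested on more reads. From the value of a single read these were estimated at 2598 to 3738 per library for *AAP2*, 56 to 262 for *AAP4*, 32 to 66 for *AAP3* and 20 to 44 for *AAP6*. The closest libraries of the 2 groups for *AAP4* had about 186 reads (WT replicate 3, 95% exact Poisson interval 160 to 215) and about 82 reads (*CEPDL2ox* replicate 1, 65.2 to 102). These intervals cover counting error only, since the reads carry no molecular identifiers.

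**Figure D3:**
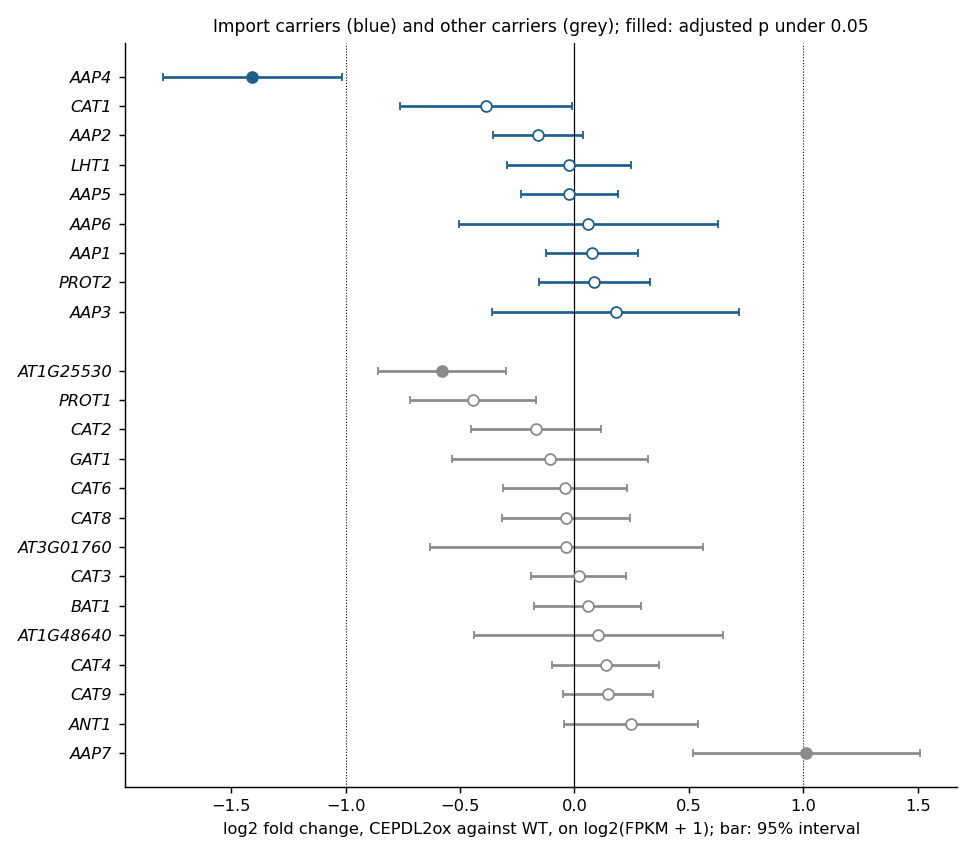
Log2 fold change of *CEPDL2ox* against WT (x axis, with 95% interval) for the 9 tested import carriers in blue and 14 other tested amino acid carriers in grey (filled circles, adjusted p under 0.05). *AAP4* at -1.41 is the only blue gene past a dotted line, and *AAP7* at 1.01 the only grey one.

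The levels of the carriers spanned a wide range, and *AAP4* changed its place in their order. In WT the mean FPKM, a level per transcript length, was 368 for *AAP2*, 52.2 for *LHT1*, 22.4 for *AAP4*, 20.6 for *AAP1*, 15.1 for *AAP5*, 13.9 for *PROT2*, 6.41 for *CAT1*, 5.10 for *AAP3* and 3.68 for *AAP6*. Neighbours whose libraries overlapped were *AAP4* and *AAP1*, *AAP5* and *PROT2*, *CAT1* and *AAP3*, and *AAP3* and *AAP6*. In *CEPDL2ox* the mean was 330.0 FPKM for *AAP2*, 50.9 for *LHT1*, 21.8 for *AAP1*, 14.9 for *AAP5*, 14.8 for *PROT2*, 7.81 for *AAP4*, 5.78 for *AAP3*, 4.67 for *CAT1* and 3.72 for *AAP6*. There *AAP4* overlapped with *AAP3* and lay below *PROT2* in every library. Within single libraries *AAP4* ranked between 3 and 4 among the 10 carriers in WT and between 6 and 7 in *CEPDL2ox*.

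*AAP2* held most of the summed FPKM of the 10 carriers, between 71.2% and 74.5% in WT and between 69.8% and 74.7% in *CEPDL2ox* libraries. The share of *AAP4* was 5.43%, 4.01% and 3.82% in WT and 1.95%, 1.46% and 1.73% in *CEPDL2ox* replicates 1, 2 and 3. The sum itself was 495, 525 and 502 FPKM in WT and 461, 424 and 478 FPKM in *CEPDL2ox*. All 3 *CEPDL2ox* sums were below the WT sums, and most of that gap lies in *AAP2*, which was not called.

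The change of *AAP4* was also set against that of each other tested carrier within the same library, which removes any scaling between libraries apart from the pseudocount. The log2 difference between *AAP4* and *AAP2*, its closest relative, was -4.22 to -3.68 in WT and -5.37 to -5.08 in *CEPDL2ox*. Relative to *AAP1*, with a similar level in WT, it was -0.06 to 0.36 in WT and -1.77 to -1.12 in *CEPDL2ox*. In all 8 of these comparisons the *CEPDL2ox* libraries were below the WT libraries without overlap, with a mean difference between -1.59 (*AAP3*) and -1.02 (*CAT1*). The 8 comparisons share the *AAP4* values and restate its difference against carriers that were not called, so they are a description and add no support to it.

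**Figure D4:**
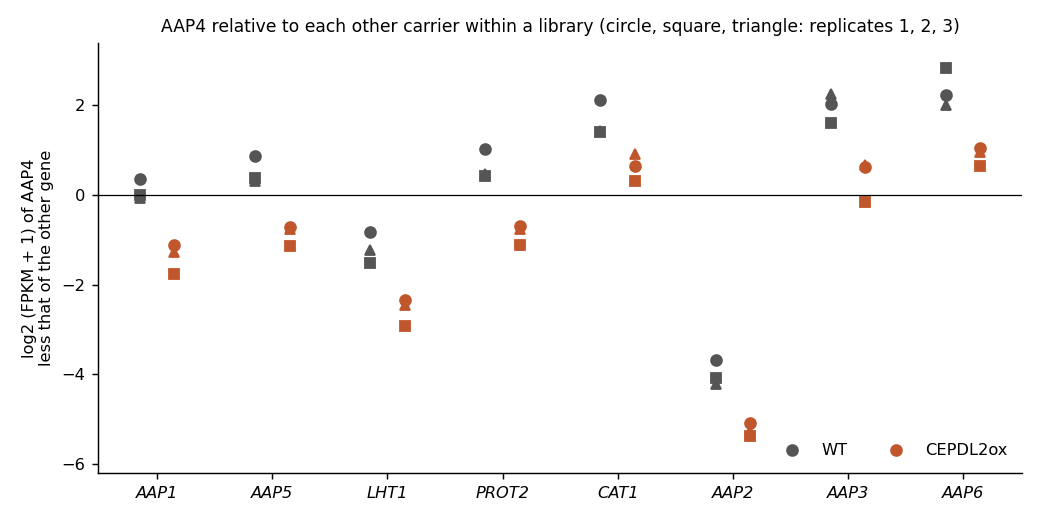
Log2(FPKM + 1) of *AAP4* less that of each of 8 other carriers in the same library (y axis), for WT in grey and *CEPDL2ox* in orange (1 point per library). For every carrier the 3 *CEPDL2ox* points lie below the 3 WT points, from -4.22 to -3.68 against -5.37 to -5.08 for *AAP2*.

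Among tested genes other than the carriers, the pattern over the 6 libraries most like that of *AAP4* was that of *CGS1*, which encodes cystathionine gamma-synthase of methionine synthesis (Pearson's r = 0.998 of log2(FPKM + 1)). *CGS1* had 170.1, 162 and 156 FPKM in WT and 126, 117 and 125 FPKM in *CEPDL2ox* replicates 1, 2 and 3. Next came *RGL3*, a DELLA repressor of gibberellin responses (r = 0.997), and *MAP70.4*, annotated as a microtubule-associated protein (r = 0.994). Their log2 fold changes were smaller than that of *AAP4*, at -0.41 for *CGS1*, -0.50 for *RGL3* and -0.61 for *MAP70.4*. *CGS1* was called (adjusted p = 0.018, limma), while *RGL3* (0.072) and *MAP70.4* (0.051) were not. In total 219 genes had r above 0.95, and with 6 libraries in 2 groups such values describe these libraries only.

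A list of other amino acid carriers held 22 genes of the AAP, LHT, ProT and CAT families and of *GAT1*, *ANT1* and *BAT1*, of which 14 were tested. Of these 1 rose, beside 3.71% of all genes tested, 1 fell, beside 2.00%, and 12 were not called. Of the 8 that were not tested, 3 were listed at 0 in all libraries and none exceeded 1.21 FPKM. The median log2 fold change of the 14 was -0.01. *AAP7* (AT5G23810), the AAP gene outside the 10, had 1.83, 2.44 and 2.97 FPKM in WT and 4.35, 6.35 and 7.08 FPKM in *CEPDL2ox* replicates 1, 2 and 3, without overlap. It rose by 1.01 on the log2 scale, with a standard error of 0.21 (adjusted p = 0.036, limma). This call was lost without any 1 of the 6 libraries, with adjusted p between 0.050 and 0.12. The gene that fell was AT1G25530, annotated as a transmembrane amino acid transporter family protein, with 17.0, 21.5 and 20.5 FPKM in WT and 14.2, 12.2 and 12.0 FPKM in *CEPDL2ox*. Its log2 difference was -0.58 with a standard error of 0.12 (adjusted p = 0.035, limma). Its position in the tables overlaps AT1G25520, so reads of both may mix there, and its call held only without WT replicate 1 among the 6 fits that left out a library (adjusted p = 0.045 there and 0.074 to 0.11 in the others). *PROT1*, a relative of *PROT2*, had 22.9, 27.0 and 27.7 FPKM in WT and 20.6, 19.4 and 16.4 FPKM in *CEPDL2ox*, without overlap, and was not called (log2 difference -0.44, adjusted p = 0.074, limma), except with the same summed FPKM (adjusted p = 0.044).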

How the data were processed

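RNA of 3 WT and 3 *CEPDL2ox* root samples was sequenced by the authors as single-end 75-bp reads on a MiniSeq and mapped to TAIR10 on the BaseSpace Sequence Hub of illumina. The authors deposited FPKM per gene in 1 table per library, with no read counts. The tool that computed FPKM, and whether libraries were scaled further, are not given in the sources used here. TruSeq RNA v2 libraries do not mark strand.

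Samples were grouped by their labels. Log2(FPKM + 1) was fitted in R 4.3.3 with limma 3.58.1 (intensity trend, no covariates) over genes whose mean reached 1 FPKM. Adjusted p-values are over all 19597 genes tested. The fit was tested on simulated data. Single values were compared by exact permutation in scipy 1.17.1, and sequences were handled with Biopython 1.88. A log2 fold change on this scale understates that of genes near 1 FPKM.

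The reads behind a value were estimated from genes with 1 exon, over 600 bases and above 0 in a single library, as FPKM times length less 200 bases. By this value, 21 of 21 estimates under 100 reads, in the 7 members with 1 annotated length, lay within 0.2 of a whole number. The 21 include the values of *AAP8* listed at 0, which are whole numbers whatever the value of a read. Of the genes in the tables, 32813 matched RefSeq by identifier. Positions of genes come from the tables, and sequences with their positions from TAIR10.1. Its gene models start and end elsewhere for many genes, by 118 and 136 bases for *AAP4*. Proteins were aligned globally (BLOSUM62), and identity is given as a share of the longer protein.

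The members and lists were chosen with earlier results of these data known. All 10 members were to be named, then other carriers with an adjusted p under 0.05, *AAP7*, *CEPDL2* and the 3 genes most correlated with the member of smallest adjusted p. *PROT1* and the named marker genes were added after their values were seen. One listed gene, AT1G47670, was dropped because the tables give it another name. Alternatives were a pseudocount of 0.1, no filter, a filter at 5 FPKM, scaling by the median of ratios or to the same summed FPKM, a fit without intensity trend, quantile normalization, a block for the replicate number, and each library left out.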

Additional observations from a re-analysis of the deposited data

How the results depend on the processing

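The count of import carriers lower in *CEPDL2ox* stayed at 1, and that of higher ones at 0, under all 14 alternatives, with and without the fold threshold. The adjusted p of *AAP4* lay between 0.0030 and 0.023 over them. Among members not called, the sign turned in 6 cases. With the same summed FPKM the log2 fold change of *AAP1* was -0.012 and that of *AAP6* -0.0087. With a library left out it ranged from -0.061 to 0.015 for *AAP5*, from -0.11 to 0.10 for *LHT1* and from -0.21 to 0.25 for *AAP6*, turning without WT replicate 2, and from -0.064 to 0.32 for *AAP3*, turning without WT replicate 3. The count of other carriers lower in *CEPDL2ox* was 0 in place of 1 with no filter, no intensity trend and the replicate block, and 2 with the same summed FPKM. The count of other carriers higher was 0 in place of 1 with no filter and with a filter at 5 FPKM, which removed *AAP7*. With each library left out, these counts ranged from 0 to 1 and from 0 to 0. Over all genes tested, the lower count of 392 became 258 with no filter, 211 without an intensity trend, 711 with the same summed FPKM and 99 to 176 with a library left out, and the higher count of 728 became 259 to 434 with a library left out; fewer libraries were then fitted.

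The replicate numbers are shared between the groups in the labels, but the deviations of same-numbered libraries from their group means correlated at -0.03, 0.02 and 0.00064, and not every library correlated best with its own number, so the numbers were not taken to pair the libraries. With the replicate number as a block, *AAP4* kept its log2 fold change of -1.41 (adjusted p = 0.0060 from limma), and all genes tested gave 280 lower and 560 higher. Depth limits *AAP8*, *AAP6* and *AAP3*, with at most 66 reads per library.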
